A study of Mus musculus with 6 samples.

Results

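A set of 10 genes that control or mark the epithelial or mesenchymal state of a cell was followed in RNA sequencing of intrahepatic biliary epithelial cells, which form the lining of bile ducts inside the liver. They were taken by gene symbol (Snai1, Snai2, Snai3, Zeb1, Zeb2, Twist1, Vim, Esrp1, Esrp2 and Grhl2), and all 10 of 10 were found among the 25302 rows of the expression table. The study compared 3 mouse samples of genotype Sox9fl/fl, labelled Control, with 3 of genotype Sox9fl/fl:AlbCre+/-, labelled Sox9cKO. Both groups therefore carry floxed alleles of Sox9, a transcription factor gene of the bile duct lineage, and the groups differ by AlbCre, a Cre recombinase transgene under the albumin promoter, which is active in hepatoblasts, the shared precursors of hepatocytes and biliary cells. Neither group is wild type, and no group carried AlbCre without floxed Sox9. Age, sex and the number of animals behind each sample were not given in the sources used here, so the p-values below measure the spread between these 6 samples, which may in part be technical.

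An epithelial cell keeps lateral junctions and apical-basal polarity, and a mesenchymal cell has lost them and makes matrix and contractile proteins. The Snail factors (Snai1, Snai2, Snai3) and the Zeb factors (Zeb1, Zeb2) are zinc finger repressors that bind E-box sequences in the promoters of epithelial genes such as Cdh1, which encodes E-cadherin. Twist1 is a basic helix-loop-helix factor of the same programme, and Vim encodes vimentin, the intermediate filament protein of mesenchymal, endothelial and blood cells. On the epithelial side, Grhl2 is a Grainyhead family activator of junction genes, and Esrp1 and Esrp2 are RNA-binding proteins that direct epithelial patterns of alternative splicing. The Zeb factors and the microRNAs of the miR-200 family repress each other.

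The miR-200 link can be read in the sequences, and it separates the Zeb genes from the other regulators listed here. The mature miR-200 microRNAs fall into a pair of seed groups, which differ by a single base of the seed. The first group holds miR-141 and miR-200a, and the second holds miR-200b, miR-200c and miR-429. Sequences are from RefSeq (GRCm38.p6), 5′ to 3′, with the seed (bases 2 to 8) in capitals.
miR-141-3p: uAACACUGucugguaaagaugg
miR-200a-3p: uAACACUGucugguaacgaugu
miR-200b-3p: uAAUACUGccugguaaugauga
miR-200c-3p: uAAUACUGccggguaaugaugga
miR-429-3p: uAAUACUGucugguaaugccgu

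The DNA letters that pair with these seeds are CAGTGTT for the first group and CAGTATT for the second. In the longest annotated 3′ UTR of each gene (GENCODE M21, transcribed strand), Zeb1 held 9 matches, 4 of CAGTGTT and 5 of CAGTATT, over 2401 bases. Zeb2 also held 9, again 4 and 5, over 4941 bases. Only 3 of 21020 genes with a 3′ UTR (0.0143%) held at least 9, whereas 25.8% held at least 1. Snai2 held 2, Snai1 and Grhl2 held 1 each, and no match was found in Snai3, Twist1, Vim, Esrp1 or Esrp2. A choice of 3 of the Zeb2 matches are shown to compare both kinds of site, with the seed match in capitals and the match position counted from the first base of the 3′ UTR.
Zeb2 position 209: gcaaaaattttgtaCAGTGTTa
Zeb2 position 393: gcactaccatacatCAGTATTt
Zeb2 position 458: gcactacagtgcatCAGTATTa

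A match is a description of the sequence and not a measured site. Of the microRNA genes, the precursor locus Mir200b was in the table, at 0.928 to 3.40 normalized reads per library. It was too low to test, and Mir200a, Mir200c, Mir141, Mir429 and Mir205 were not analysed here.

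The E-box, the motif that Snail and Zeb proteins bind, was searched as CAGGTG, or on the other strand as CACCTG, in the 250 bases before each transcription start in the RefSeq table (GRCm38.p6). It was present in 17.2% of all 32851 promoters. Of the 27 promoters that the table holds for 20 of 27 listed epithelial adhesion, junction and polarity genes, 17 (63.0%) held it, in 15 genes. Epcam, a cell adhesion protein and standard biliary surface marker, has E-boxes at positions -187 and -19, and Cldn4, a tight junction claudin, has 1 at position -14. Among the regulators the table held promoters for 4 (Snai1, Zeb2, Twist1 and Vim, 7 promoters in all), and Snai1 held an E-box, at position -126. The Snai1, Epcam and Cldn4 promoters are shown because they pair a repressor with epithelial genes, and the E-boxes are in capitals. Each sequence is 5′ to 3′ on the strand of its gene.
Snai1, chr2:167537945-167538194, plus strand: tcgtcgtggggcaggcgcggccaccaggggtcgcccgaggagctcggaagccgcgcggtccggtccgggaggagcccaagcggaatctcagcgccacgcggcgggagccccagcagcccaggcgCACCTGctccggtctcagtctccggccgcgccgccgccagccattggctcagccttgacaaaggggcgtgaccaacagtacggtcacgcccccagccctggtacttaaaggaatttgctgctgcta
Epcam, chr17:87635729-87635978, plus strand: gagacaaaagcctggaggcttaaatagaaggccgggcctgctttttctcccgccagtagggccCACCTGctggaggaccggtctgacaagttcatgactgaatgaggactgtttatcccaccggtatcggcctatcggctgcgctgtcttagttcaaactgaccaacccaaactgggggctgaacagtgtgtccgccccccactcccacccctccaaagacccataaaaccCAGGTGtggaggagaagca
Cldn4, chr5:134946935-134947184, minus strand: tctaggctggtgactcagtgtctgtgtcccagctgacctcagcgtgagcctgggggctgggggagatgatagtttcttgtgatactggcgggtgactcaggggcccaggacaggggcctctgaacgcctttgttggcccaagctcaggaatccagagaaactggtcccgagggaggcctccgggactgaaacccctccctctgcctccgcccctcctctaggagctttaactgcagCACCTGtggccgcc

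The Grainyhead motif AACNNGTT, which reads the same on both strands, was in 3.64% of all promoters, in none of the 7 promoters of regulators and in the promoters of the epithelial genes Muc1, Patj and Rab25. The Sox core motif AACAAT, which is read on the other strand as ATTGTT, was in 9.42% of all promoters, in none of the 27 epithelial promoters and in that of 1 regulator, Twist1, at position -190. The Twist1 promoter is shown with that match in capitals.
Twist1, chr12:33957421-33957670, plus strand: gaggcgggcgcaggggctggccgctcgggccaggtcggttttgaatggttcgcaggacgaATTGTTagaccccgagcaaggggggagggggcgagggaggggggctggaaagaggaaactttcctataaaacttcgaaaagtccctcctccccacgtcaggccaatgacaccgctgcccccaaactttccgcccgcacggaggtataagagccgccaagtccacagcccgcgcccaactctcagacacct

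The 6 libraries held 11883496 to 16191990 reads assigned to genes, and values are given as normalized reads: each library's reads were scaled by its own size factor. The check of the label was Sox9: its normalized reads were 6211, 6043 and 6293 for Control and 3363, 3165 and 3340 for Sox9cKO (replicates 1 to 3, as in all values below), so the groups did not overlap and Sox9cKO averaged 53.2% of Control. The biliary markers, 7 of 7 in the table, summed to 63866 to 102735 in Control and 55289 to 84931 in Sox9cKO and were detected in every library; 1 of the 7, the keratin Krt7, was called higher (log2 fold change 0.997). The 13 endothelial markers summed to 16523, 54862 and 2428 in Control and to 42066, 55996 and 9230 in Sox9cKO, a 23.1-fold range over the libraries that cut across both groups, and the sum was higher in Sox9cKO in all 3 same-numbered pairs. Of the 13, 0 passed the test (0 also at an unadjusted limma p under 0.05, in edgeR and in DESeq2) and 1, Egfl7, passed with the replicate block described below (limma adjusted p = 0.0356), and the median log2 fold change was 1.09. Summed hepatocyte markers were 21272 to 33601 in Control and 42156 to 71455 in Sox9cKO. Of these 10 markers, 9 were above 0 on the log2 scale, with a median log2 fold change of 0.42. The test called 3 higher, among them the fibrinogen gene Fgb (3.62 on the log2 scale), and 7 were not called. Most of the rise in the hepatocyte sum came from another called gene that is not reported here. Without that gene the hepatocyte sums of the groups overlapped. Alb (albumin), the most abundant of them, overlapped between the groups, at 27683, 17384 and 18944 in Control and 32147, 21399 and 35363 in Sox9cKO. The mesothelial sum was 424 to 540 and 934 to 1883, but most of it was Msln, and of the 5 markers 3 were above and 2 below 0, with a median of 0.13. The leukocyte sum was 2018 to 2609 and 2911 to 4617, most of it Csf1r and Cd74, while 6 of the 8 tested markers were below 0, with a median of -0.57. The stellate cell and fibroblast sum was 3266 to 3804 and 3815 to 4506, most of it Reln and Rgs5, while 7 of the 10 tested markers were below 0, with a median of -0.20. Erythroid (6.79 to 57.5) and Schwann cell (19.5 to 23.0) markers were low in all libraries. In bulk samples, fewer cells of a type and less RNA per cell cannot be told apart.

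Across the 10 regulators, 1 passed the test: Snai3 was higher in Sox9cKO. The other 9 did not pass. The test was limma's on log2(normalized reads + 1), with Benjamini-Hochberg adjustment over 17153 genes and a threshold of 0.05. It called 510 genes (2.97% of those tested): 349 (2.03%) with higher and 161 (0.939%) with lower values in Sox9cKO. An unadjusted p under 0.05 was reached by 2 of the 10 regulators and by 17.8% of all tested genes. With the replicate number as a block, 8.05% of genes were called (5.06% higher, 2.99% lower), and among the regulators Snai3 was called higher and Grhl2 lower. On the recovered reads, edgeR called 1 regulator (2.86% of all genes) and DESeq2 called 2 (7.08%). Values of the groups did not overlap for 2 of the 10 regulators, again Snai3 and Grhl2, against 24.2% of all tested genes. The median log2 fold change of the 10 was 0.66, with 7 above 0 and 3 below, beside a median of 0.036 for all tested genes.

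**Figure D1:**
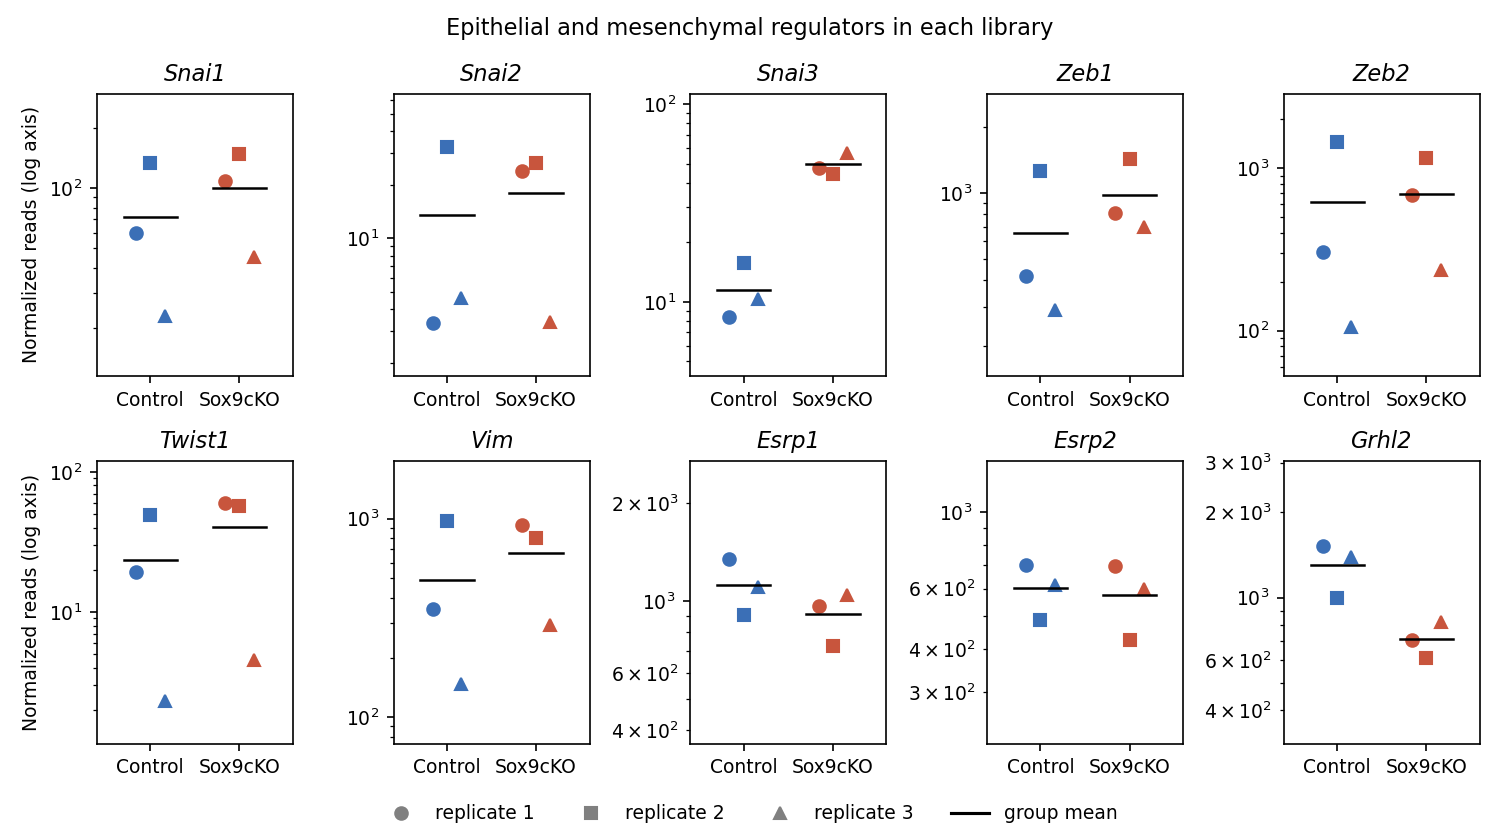
Normalized reads of each regulator in each library, on a log axis, with Control (blue) and Sox9cKO (red) replicates 1, 2 and 3 as circles, squares and triangles and the group mean as a line. Snai3 (8.41 to 15.8 in Control, 44.4 to 56.6 in Sox9cKO) and Grhl2 (995 to 1521 and 610 to 820) are the genes whose groups do not overlap.

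Of the Snail factors, Snai3 passed the test and Snai1 and Snai2 did not. Snai3 is the least studied of the family and shares its zinc finger repressor design. It had 8.41, 15.8 and 10.4 normalized reads in Control and 47.8, 44.4 and 56.6 in Sox9cKO. Every Sox9cKO library was above every Control library. The means were 11.5 ± 3.82 and 49.6 ± 6.30 (SD, n = 3 each), and the log2 fold change was 2.05 ± 0.33 (SE, limma adjusted p = 0.0211). Within same-numbered pairs of libraries the log2 difference was 2.37, 1.44 and 2.34. These values rest on 10, 17 and 9 reads in Control and 48, 47 and 50 in Sox9cKO. Of the other cell types, the hepatocyte, mesothelial, leukocyte and stellate cell sums given above were also higher in every Sox9cKO library. Of the 10 hepatocyte markers, 9 were above 0, but 7 were not called and the most abundant, Alb, overlapped between the groups. The hepatocyte sums overlapped too without a called gene that is not reported here. The part of these cells in the Snai3 difference was not tested. The call ended when any library other than Control replicate 2 was left out: the limma adjusted p was 0.0881 without Control replicate 1, 0.0816 without Control replicate 3, and 0.0623, 0.0676 and 0.0769 without Sox9cKO replicates 1, 2 and 3, at log2 fold changes between 1.87 and 2.12. The neighbours of Snai3 on chromosome 8 did not pass: Mvd, a mevalonate pathway enzyme, was at a log2 difference of 0.16 (limma adjusted p = 0.666) and Rnf166, a ubiquitin ligase gene, at 0.63 ± 0.16 (SE, limma adjusted p = 0.0924).

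Snai1, the Snail factor best known for repressing Cdh1, read 59.7, 134 and 23.0 in Control and 108, 148 and 45.3 in Sox9cKO. The groups overlapped, and in both replicate 2 was highest and replicate 3 lowest. The log2 fold change was 0.65 ± 0.68 (SE, limma adjusted p = 0.680), with a 95% interval of -0.94 to 2.24. Snai2 (Slug), the factor of neural crest and basal epithelia, read 3.36, 32.5 and 4.61 in Control and 23.9, 26.5 and 3.40 in Sox9cKO. With 3 or 4 reads in 3 of the 6 libraries it was barely detected there, and its highest value was in a Control library. Its log2 fold change of 0.62 ± 0.995 (SE) had a limma adjusted p of 0.799.

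The Zeb factors varied more between libraries of one group than between the groups. Zeb1 read 416, 1263 and 290 in Control and 809, 1425 and 697 in Sox9cKO. Control replicate 2 exceeded 2 of the 3 Sox9cKO libraries. For Zeb1 the log2 fold change was 0.80 ± 0.54 (SE, limma adjusted p = 0.501, and 0.0646 with the replicate block), although each pair was above 0 (0.96, 0.17 and 1.26). Zeb2, a paralog that also acts in endothelial cells and macrophages, read 304, 1446 and 105 in Control and 683, 1160 and 237 in Sox9cKO. Its highest and lowest values were both in Control. For Zeb2 it was 0.67 ± 0.96 (SE, limma adjusted p = 0.772), with a 95% interval of -1.58 to 2.93, and the value was -0.21 without Control replicate 3.

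Twist1 read 19.3, 49.2 and 2.30 in Control and 59.7, 56.7 and 4.53 in Sox9cKO, a 25.9-fold range over the libraries. Replicate 3 was the lowest in both groups, with 2 and 4 reads. For Twist1 the log2 fold change was 0.84 ± 1.24 (SE, limma adjusted p = 0.779), and it was -0.25 without Control replicate 3. Vim read 353, 975 and 147 in Control and 926, 801 and 292 in Sox9cKO. Here too replicate 3 was lowest in both groups, and the highest library was a Control. For Vim it was 0.70 ± 0.71 (SE, limma adjusted p = 0.671), with a 95% interval of -0.97 to 2.36.

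The order of the libraries for several mesenchymal regulators resembled that for the endothelial markers. Ordered from lowest to highest, the libraries took the same place for Snai1 as for the summed endothelial markers in 6 of 6 cases, for Zeb1 and Zeb2 in 4, for Twist1 and Vim in 3 and for Snai2 in 2. For Snai3, Esrp1, Esrp2 and Grhl2 the number was 0. Shared places were counted for the regulators only, so how common such an order is among all genes was not tested. Per 1000 endothelial marker reads, Zeb2 was 18.4, 26.4 and 43.2 in Control and 16.2, 20.7 and 25.6 in Sox9cKO, a 2.66-fold range beside 13.8-fold for its reads. Twist1 per 1000 endothelial marker reads was 1.17, 0.897 and 0.949 in Control and 1.42, 1.01 and 0.491 in Sox9cKO, a 2.89-fold range beside 25.9-fold. The same scaling narrowed the range less for Snai1 (3.90-fold beside 6.44-fold) and Vim (4.24-fold beside 6.61-fold) and widened it for Zeb1, which was 25.2, 23.0 and 120 in Control and 19.2, 25.5 and 75.6 in Sox9cKO (6.22-fold beside 4.91-fold). For Snai2 it hardly changed the range (9.33-fold beside 9.66-fold). With the endothelial level as a covariate, a fit added after the data were examined that called 632 genes (3.68%), the log2 fold changes were 0.034 for Snai1, 0.36 for Zeb1, -0.21 for Zeb2, -0.27 for Twist1, 0.044 for Vim and -0.085 for Snai2, none of them called. In the same fit Snai3 was 2.01 (limma adjusted p = 0.0294), still called, and Grhl2 was -0.74 (limma adjusted p = 0.0546). Whether the reads of these genes came from endothelial or from biliary cells was not tested.

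**Figure D2:**
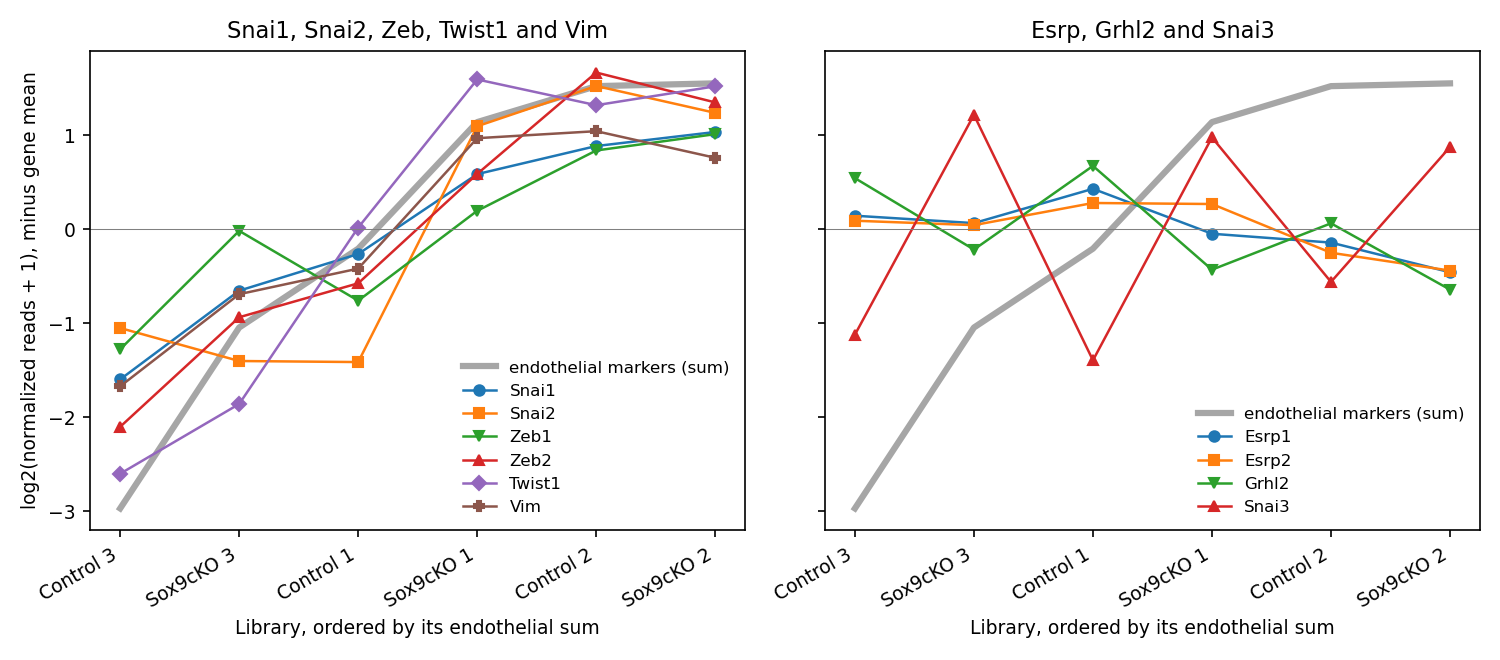
Regulators in each library as log2(normalized reads + 1) minus the gene's mean, with the 6 libraries ordered along the x axis by their summed endothelial markers (thick grey line), from Control replicate 3 (2428) to Sox9cKO replicate 2 (55996). Snai1, Snai2, Zeb1, Zeb2, Twist1 and Vim are higher in the 3 libraries on the right than in the 3 on the left, while Snai3 alternates with the genotype and Grhl2, Esrp1 and Esrp2 show no such climb.

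Grhl2 was the epithelial regulator with the largest difference. It read 1521, 995 and 1389 in Control and 706, 610 and 820 in Sox9cKO. Every Sox9cKO library was below every Control library, and the means were 1302 ± 274 and 712 ± 105 (SD, n = 3 each), so that Sox9cKO averaged 54.7% of Control. The log2 fold change of -0.86 ± 0.19 (SE, 95% interval -1.31 to -0.40) did not pass the test (limma adjusted p = 0.0691). With the replicate block the same difference passed (limma adjusted p = 0.0100), and the pairs gave -1.11, -0.71 and -0.76. It also passed without Control replicate 2 (limma adjusted p = 0.0301), but not when any other library was left out (limma adjusted p from 0.0957 to 0.233). In DESeq2 on the recovered reads it passed (adjusted p = 0.000993), but not in edgeR's quasi-likelihood test (adjusted p = 0.0580). The next gene on chromosome 15, Ncald, which encodes the calcium sensor neurocalcin delta, was lower at -2.08 ± 0.26 (SE, limma adjusted p = 0.00849). Zfp706, 2 places away on the other side, was at 0.073, and the gene between had no test result. Gene order is that of RefSeq (GRCm38.p6).

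Neither splicing regulator passed the test. Esrp1 read 1347, 905 and 1104 in Control and 966, 727 and 1045 in Sox9cKO. The groups overlapped, and all 3 pairs were below 0 (-0.48, -0.32 and -0.079). Its log2 fold change was -0.29 ± 0.20 (SE, limma adjusted p = 0.503), with a 95% interval of -0.75 to 0.17. Esrp2, the Esrp paralog also known from adult hepatocytes, read 703, 486 and 616 in Control and 697, 426 and 597 in Sox9cKO. The groups overlapped almost fully. Its log2 fold change was -0.083 ± 0.22 (SE, limma adjusted p = 0.890), with a 95% interval of -0.60 to 0.44. Exons of Esrp2 share 219 bases with Nfatc3 on the opposite strand, and whether the counting used the strand is not given in the sources used here, so some of its reads may belong to that gene. Grhl2 shares 169 exon bases with the antisense gene Gm16136, which averaged 20.2 normalized reads.

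**Figure D3:**
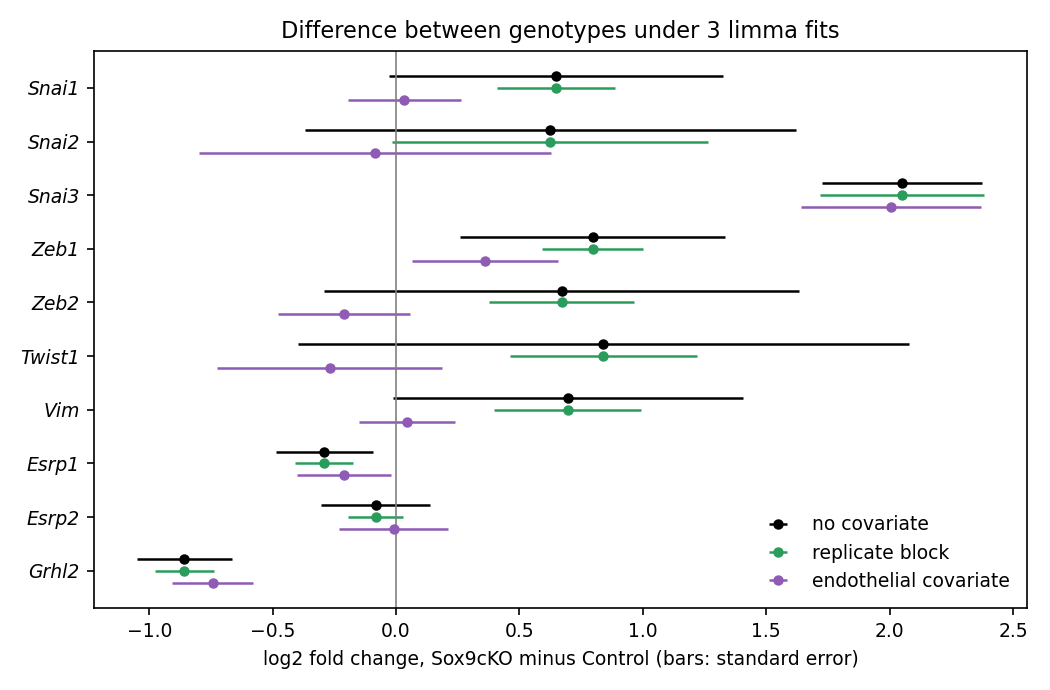
Log2 fold change of each regulator on the x axis, Sox9cKO minus Control on the log2(normalized reads + 1) scale, as points with standard errors as bars, from limma without a covariate (black), with the replicate block (green) and with the endothelial covariate (purple). In this balanced design the replicate block cannot change a log2 fold change, so its points match those without a covariate. With the endothelial covariate Snai3 goes from 2.05 to 2.01 and Grhl2 from -0.86 to -0.74. Zeb2 (0.67 to -0.21), Twist1 (0.84 to -0.27) and Snai2 (0.62 to -0.085) change sign with it.

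Levels were compared between genes per kilobase of exon. In Control the order of mean normalized reads per kilobase was Esrp1 (177 ± 35.1), Grhl2 (151 ± 31.8), Esrp2 (139 ± 25.1), Vim (104 ± 90.9), Zeb1 (64.0 ± 51.5), Snai1 (44.5 ± 34.8), Zeb2 (31.0 ± 36.3), Twist1 (14.5 ± 14.6), Snai3 (7.07 ± 2.35) and Snai2 (6.67 ± 8.15) (SD, n = 3). No neighbours in that order differed beyond their spread. In Control replicate 3, which has the lowest endothelial sum, the 3 epithelial regulators lay at 142 to 175 and Vim at 31.1. In Sox9cKO the order was Esrp1 (145 ± 26.3), Vim (142 ± 70.8), Esrp2 (132 ± 31.6), Zeb1 (95.2 ± 38.2), Grhl2 (82.6 ± 12.2), Snai1 (62.1 ± 32.1), Zeb2 (34.8 ± 23.1), Snai3 (30.5 ± 3.87), Twist1 (24.8 ± 19.1) and Snai2 (8.86 ± 6.25). Here too no neighbours differed beyond their spread.

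Of the 27 listed adhesion, junction and polarity genes, 0 passed the test in limma or in edgeR and 2 in DESeq2, which called 7.08% of all tested genes. An unadjusted limma p under 0.05 was reached by 5, all 5 higher, beside 17.8% of all tested genes in either direction. Of the 27, 14 were above and 13 below 0 with a median log2 fold change of 0.025. Krt8, a keratin of simple epithelia and the most abundant of them, was at -0.049 on the log2 scale (limma adjusted p = 0.929), and Cdh1 read 34200, 30315 and 38816 in Control and 32842, 28154 and 29645 in Sox9cKO, a log2 fold change of -0.18 ± 0.14 (SE, limma adjusted p = 0.559). Epcam, with the E-boxes shown above, was at -0.16 (limma adjusted p = 0.693). Cldn4, also shown above, was at 0.48 (limma adjusted p = 0.148) with groups that did not overlap. With the replicate block 3 of the 27 were called, all higher: the protease inhibitor genes Spint1 (0.53, limma adjusted p = 0.0224) and Spint2 (0.46, limma adjusted p = 0.0367) and the tight junction gene Tjp3 (0.59, limma adjusted p = 0.0305). Epcam, Cldn4 and these 3 genes were named after their values were seen.

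Among the other epithelial transcription factors, 7 of 9 were tested and 1 was called, Ovol2, a zinc finger repressor of Zeb1. Ovol2 read 49.6, 29.7 and 44.9 in Control and 10.9, 11.3 and 14.7 in Sox9cKO, and the groups did not overlap. It fell by 1.65 ± 0.32 on the log2 scale (SE, limma adjusted p = 0.0458), and the call ended in each of the 6 fits that left out 1 library (limma adjusted p from 0.0591 to 0.201). With all 6 libraries kept, the call also ended without a filter (limma adjusted p = 0.0509). The same held for quantile normalization (limma adjusted p = 0.0783) and the endothelial covariate (limma adjusted p = 0.0570). Ehf, an epithelial Ets factor, was at -0.75 (limma adjusted p = 0.0515, and 0.00910 with the replicate block).

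Of the other mesenchymal transcription factors, 5 of 12 were tested and 1 was called, and it was lower rather than higher. Foxc1, a forkhead factor, read 235, 152 and 182 in Control and 33.8, 47.3 and 26.0 in Sox9cKO. Its groups did not overlap, and it fell by 2.39 ± 0.28 on the log2 scale (SE, limma adjusted p = 0.00710). Twist2, Scrt1, Foxc2 and Prrx1 had means under 10 normalized reads and were not tested, and the other 3 were not analysed here.

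Of the mesenchymal effector genes, 20 of 22 were tested, 2 were called, both higher, and the median log2 fold change was 0.40, with 14 above and 6 below 0. Fn1, which encodes the matrix protein fibronectin, read 12574, 9628 and 13164 in Control and 42617, 41711 and 45986 in Sox9cKO, with no overlap. It rose by 1.89 ± 0.15 on the log2 scale (SE, limma adjusted p = 0.00261). With the replicate block 4 were called, all higher, which included the matrix genes Sparc (1.14, limma adjusted p = 0.0214) and Col5a1 (1.29, limma adjusted p = 0.00238). Cdh2, which encodes N-cadherin, read 145, 143 and 136 in Control and 162, 405 and 361 in Sox9cKO, which is 1.02 on the log2 scale (limma adjusted p = 0.174). Tagln, of the same list, went the other way, at 58.0, 85.4 and 66.8 in Control and 44.8, 39.7 and 31.7 in Sox9cKO. Its groups did not overlap, and it was at -0.83 on the log2 scale (limma adjusted p = 0.151). Single markers of other cells were called higher too, the mesothelial Msln at 2.01 ± 0.30 (SE, limma adjusted p = 0.0159) and the macrophage gene Csf1r at 0.92 (limma adjusted p = 0.0142). Other markers of the same lists were lower or overlapped: Upk3b was at -0.82 and Lrrn4 at -0.43 among the mesothelial, and Ptprc at -1.95, Lyz2 at -1.33 and Cd68 at -0.39 among the leukocyte markers, none of them called. The part of these cells in the mesenchymal values was not tested.

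**Figure D4:**
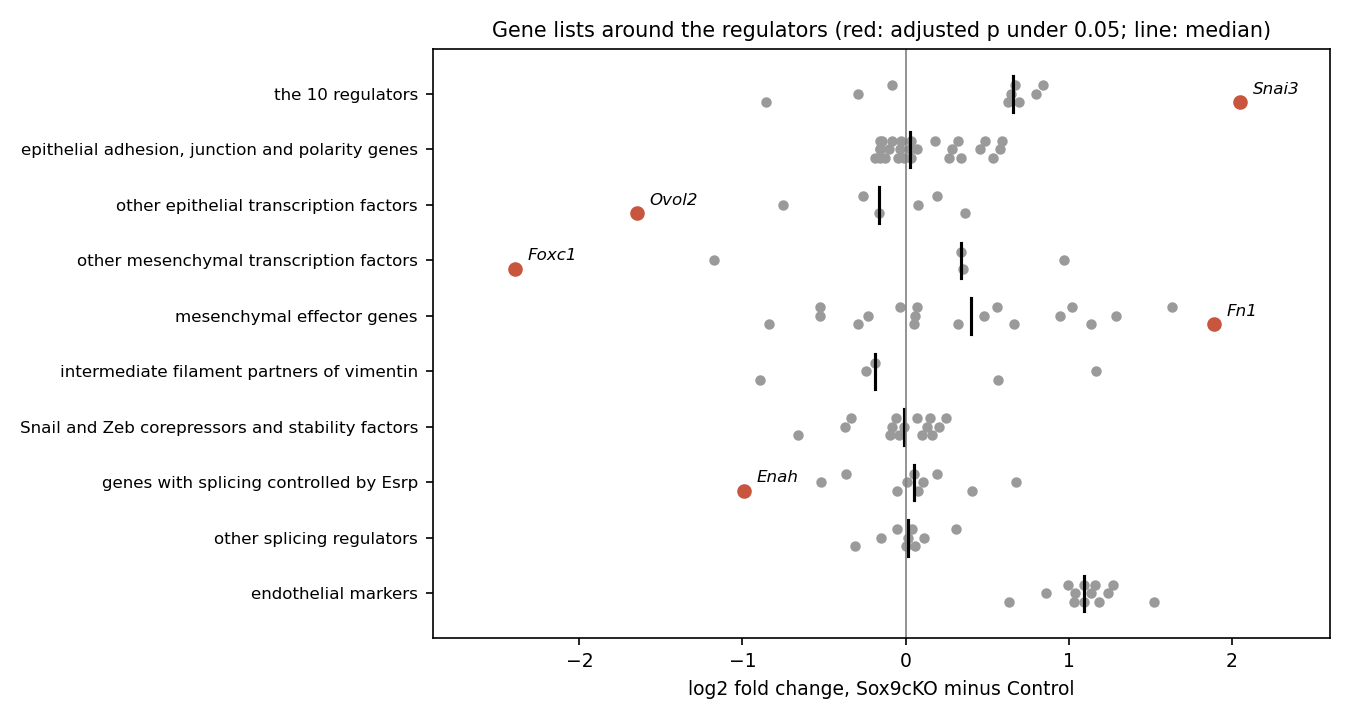
Log2 fold change of the tested genes in the regulators and 9 lists around them, leaving out 1 mesenchymal effector that is not reported here, with red points for genes that passed the limma test and a line at each list's median. Snai3 and Fn1 are the red points above 0, Foxc1, Ovol2 and Enah those below, and the 13 endothelial markers are all above 0 with none called.

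The proteins that work with the regulators showed few calls. Of 5 tested intermediate filament partners of vimentin, 0 were called by limma or edgeR and 1 by DESeq2 (7.08% of all tested genes). An unadjusted limma p under 0.05 was reached by 3 of the 5 (17.8% of all tested genes), and the median log2 fold change was -0.19. Plec, the linker protein plectin, read 26746, 26356 and 31625 in Control and 45523, 33590 and 47163 in Sox9cKO, with no overlap, at 0.56 ± 0.17 (SE, limma adjusted p = 0.145, and 0.0432 with the replicate block). Nes (nestin) was at 1.17 ± 0.49 (SE, limma adjusted p = 0.272). Of the 15 corepressors and stability factors of Snail and Zeb, 0 were called by limma or edgeR and 1 by DESeq2. An unadjusted limma p under 0.05 was reached by 3 of the 15, all 3 lower, beside 17.8% of all tested genes in either direction. The median of the 15 was -0.012. Gsk3b, the kinase that marks Snail for degradation, was at -0.37 (limma adjusted p = 0.161), and Kdm1a, the demethylase LSD1, was at 0.13 (limma adjusted p = 0.554). With the replicate block 1 of them, the Polycomb methyltransferase Ezh2, was called lower (-0.66, limma adjusted p = 0.0270).

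Of 11 genes whose splicing Esrp proteins control, 1 was called by gene level. Enah, which encodes the actin regulator Mena, read 2378, 1917 and 2159 in Control and 1122, 856 and 1304 in Sox9cKO, and the groups did not overlap. It fell by 0.99 ± 0.18 on the log2 scale (SE, limma adjusted p = 0.0317), and the call ended without any library other than Sox9cKO replicate 3, at limma adjusted p from 0.0509 to 0.145. The median of the 11 was 0.050, and with the replicate block Magi1, a junction scaffold (-0.52, limma adjusted p = 0.0226), and Cd44, the hyaluronan receptor (0.68, limma adjusted p = 0.0326), were called as well. The values are sums over all transcripts of a gene, so they do not show which exons were used. Of 9 tested other splicing regulators, 0 were called by limma, edgeR or DESeq2, 0 had an unadjusted p under 0.05, and the median was 0.013. The muscleblind gene Mbnl2 was at 0.12 and the polypyrimidine tract binding gene Ptbp1 at -0.15.

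For the 3 regulators with the highest mean reads, the genes with the most similar profile over the 6 libraries were found by the root mean square difference of centred log2 values (genes averaging 100 normalized reads or more). For Esrp1 they were Gprasp1 (0.0251) and Neo1 (0.0390). For Grhl2 they were Amd1 (0.0597) and Fosb (0.0656), and for Zeb1 the closest was Prkg1 (0.138). The distances of the nearest genes were smaller for Esrp1 than for Zeb1, and with 6 libraries they describe these samples only.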

How the data were processed

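Total RNA was depleted of ribosomal RNA and made into stranded libraries with unique molecular identifiers, per the labels' protocols. The deposited table holds a signal per gene and sample, gene counts divided by 1 size factor per sample, which the deposited values show because 100% of them are whole multiples of a step (tolerance 0.001 reads). The submitters' processing notes name DESeq2 1.36.0 and the genome build GRCm39. The aligner, counter and annotation were not given in the sources used here. The lowest total of a gene was 10 reads.

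Genes averaging 10 normalized reads or more were tested as log2(value + 1) with limma 3.58.1 (R 4.3.3, intensity trend), two-sided, with Benjamini-Hochberg adjustment over 17153 genes and a threshold of 0.05. Fold changes of low genes are understated on that scale. Alternatives were a replicate block, edgeR 4.0.16 and DESeq2 1.42.0 on the recovered reads, other pseudocounts (0.1, 5), quantile normalization, TMM factors, a stricter filter (mean of 50) or none, leaving out each library, and an endothelial covariate, which was chosen after the data were examined. The labels number the replicates in each group. Same-numbered libraries deviated together from their group means (correlations of 0.207, 0.472 and 0.542 over genes), so the numbers were taken to pair the samples. Libraries of different numbers gave correlations from -0.437 to 0.0476. Each group was centred on its own mean, which ties these values to those of the same-numbered libraries. They are therefore no separate evidence of pairing. The pairing is an assumption drawn from the same values that the replicate block uses, and what the numbers stand for was not given in the sources used here.

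Exon lengths and 3′ UTRs came from GENCODE M21 on GRCm38, which matched 98.1% of rows, and promoters and microRNAs from RefSeq (GRCm38.p6). The regulators and gene lists were chosen with earlier results of these data known. Named were all regulators, Sox9, up to 4 called genes of each list, those of lowest p-value, or, where none was called, the 2 most abundant, and the 2 genes most like each of the 3 most abundant regulators. Genes outside the rule were named after their values were seen. Among them were those called with the replicate block alone, the chromosomal neighbours, Epcam, Cldn4, Cdh2, Tagln, Ehf, Alb, Cd74, Upk3b, Lrrn4, Ptprc, Lyz2 and Cd68. Some genes that this rule selects are not reported here, though they stay in the counts and medians of their lists.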

Additional observations from a re-analysis of the deposited data

How the results depend on the processing

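The number of called genes was 510, against 1381 with the replicate block, 1160 with edgeR and the block, 1214 with DESeq2 and 199 to 387 when 1 library was left out. Of the regulators 1 was called, against 2 with the block, 2 with edgeR and the block, 2 with DESeq2, 0 at a minimum mean of 50, where Snai3 is not tested, and 0 to 2 when 1 library was left out. Of the epithelial genes 0 were called, against 3 with the block, 2 with edgeR and the block, 2 with DESeq2 and 1 with the endothelial covariate. Of the mesenchymal effectors 2 were called, against 4 in each of these 4 fits and 1 to 3 when 1 library was left out. Log2 fold changes that turned sign were Snai2 (-0.085), Zeb2 (-0.21) and Twist1 (-0.27) with the endothelial covariate. When 1 library was left out, Zeb2 ranged from -0.21 to 1.67, Twist1 from -0.25 to 1.98 and Esrp2 from -0.24 to 0.12, and without a turn of sign Snai1 ranged from 0.012 to 1.25, Vim from 0.034 to 1.39, Snai2 from 0.074 to 1.54, Zeb1 from 0.36 to 1.42 and Esrp1 from -0.43 to -0.14. For Snai1, Vim, Zeb1 and Zeb2 the lowest value was without Control replicate 3 and the highest without Control replicate 2. The cause was not tested. Among the regulators and Sox9, the replicate block changed the call of Grhl2 and no other. Sox9, Foxc1 and Fn1 kept their calls in all 17 alternatives. Reads limit Snai2 (98 over the 6 libraries), Snai3 (181) and Twist1 (202).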
